A study of Mus musculus with 2 samples.

Results

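The 10 genes described here are Cd163, Hmox1, Spic, Fth1, Ftl1, Slc40a1, Hamp, Trf, Tfrc and Slc11a1. They belong to the handling of iron and haem, a task of macrophages of the splenic red pulp but not only of those cells. They were taken by symbol from a table of 30538 genes, and all 10 were found in it. Red pulp macrophages engulf aged red blood cells and break down their haemoglobin. Haem oxygenase opens the haem ring and frees its iron, which is stored in ferritin or returned to the blood through ferroportin, and the peptide hormone hepcidin closes that exit. Iron is also withheld from bacteria during infection, so the same genes belong to the defence against a pathogen such as *Listeria monocytogenes*, which grows inside macrophages.

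Spleen cells of C57BL/6 mice gave 1 RNA sequencing library, and those of Ch25h-/- mice gave the other. The Ch25h-/- mice lack cholesterol 25-hydroxylase, an enzyme that makes 25-hydroxycholesterol. The 2 libraries are called C57BL/6 and Ch25h-/- below. Both groups had received 100000 *L. monocytogenes* by vein 3 days earlier, and neither is uninfected. About 100000 CD11b-positive, Ly6G-negative, Ly6C-low spleen cells were sorted for each, and the labels name them resident macrophages. Age, the number of mice per library and the strain background of the mutant are not given in the sources used here. A single library stands for each genotype, so the differences have no replicate check and no significance test. Each interval below is exact, at 95%, and covers counting error only.

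The libraries held 16957371 (C57BL/6) and 15986392 (Ch25h-/-) gene counts. Ch25h itself had 3 and 0 counts, too few to check the genotype labels. Markers of several cell types were present in both libraries. Adgre1, the gene of the macrophage antigen F4/80, stood at 39.7 CPM (the count scaled to library size) in C57BL/6 and 23.4 in Ch25h-/-, whereas Gzmb, a granzyme gene of natural killer (NK) cells, stood at 4356 and 7429 CPM. The values below are those of the sorted cells as a whole and cannot be assigned to 1 cell type. How many of the sorted cells were red pulp macrophages was not measured, so the ratios are not those of that cell type. In such bulk RNA, fewer cells of a type and less RNA per cell cannot be told apart.

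Of the 10 genes, 8 had less RNA in Ch25h-/- and 2, Slc40a1 and Tfrc, had more. A gene was called lower or higher when its mean was at least 1 CPM, its libraries differed at least 2-fold and its interval lay wholly on 1 side of equality. By that rule Hamp, Trf, Cd163 and Spic were called lower, 4 of 10, and the rule called 5.77% of all 11972 measured genes lower. It called none of the 10 higher, and 2.07% of measured genes. Without the 2-fold condition the interval lay below 0 for 8 of the 10, against 27.5% of measured genes, and above 0 for the other 2, against 31% of measured genes. The median log2 ratio (Ch25h-/- over C57BL/6) of the 10 was -0.78, beside 0.01 for all measured genes.

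**Figure D1:**
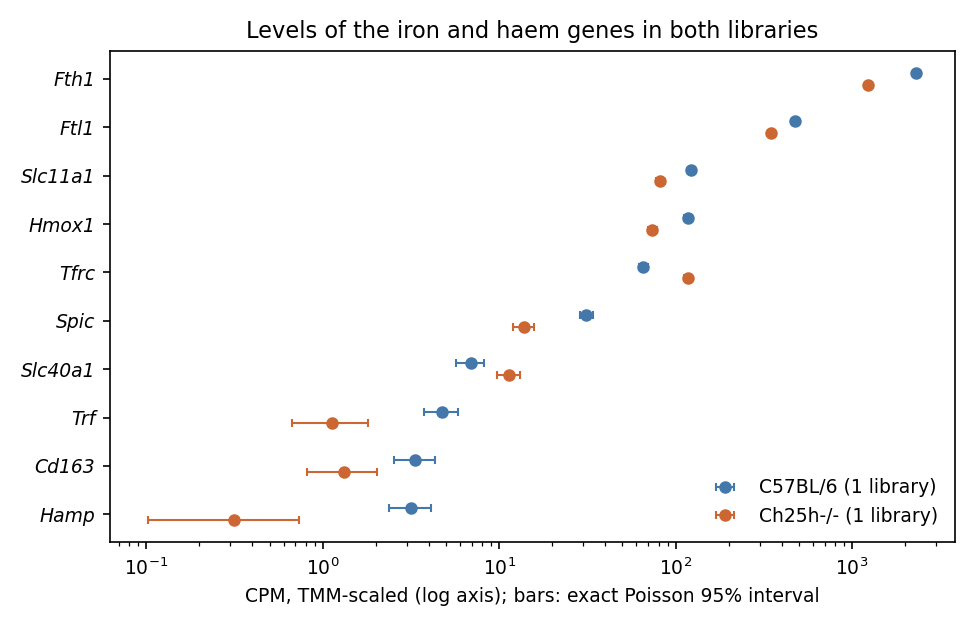
Level of each gene in CPM (log axis) in C57BL/6 (blue) and the Ch25h-/- library (orange), with exact Poisson 95% intervals of the count. Fth1 is highest in both libraries, and only Tfrc and Slc40a1 have the orange point to the right of the blue one.

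**Figure D2:**
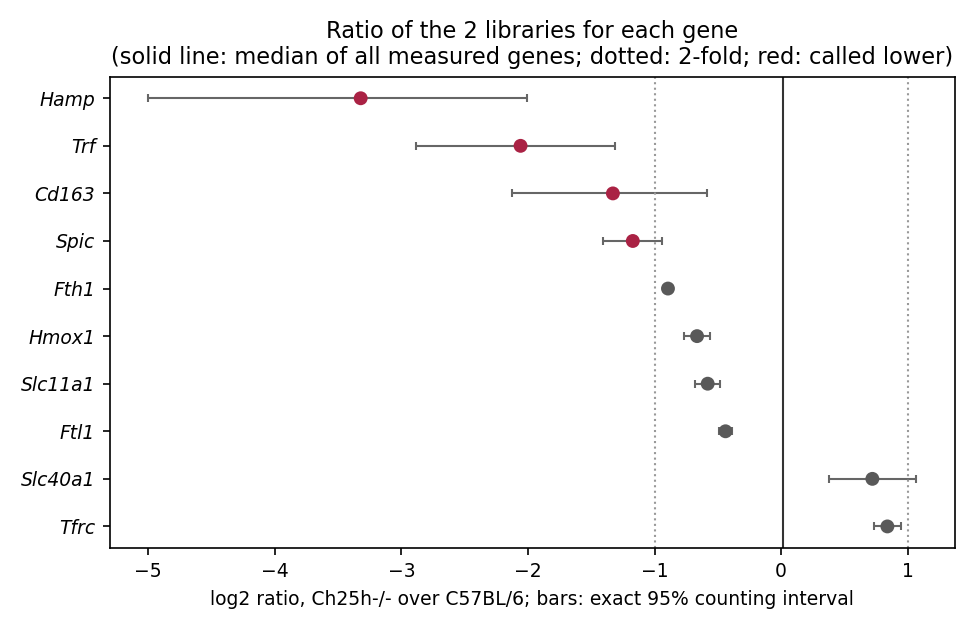
log2 ratio of each gene, Ch25h-/- over C57BL/6, with its exact 95% counting interval. The 4 red points (Hamp, Trf, Cd163, Spic) were called lower, and no interval crosses the median of all measured genes, 0.01 (solid line).

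Cd163 encodes the scavenger receptor that takes up haemoglobin bound to haptoglobin (ENSMUSG00000008845, GRCm38 chromosome 6, 124304656 to 124330527). It had 57 counts in C57BL/6 and 21 in Ch25h-/-, which is 3.33 CPM (interval 2.52 to 4.32) and 1.33 CPM (0.821 to 2.03). The log2 ratio was -1.33, with an interval of -2.13 to -0.59 at this shallow depth. Hmox1, the inducible haem oxygenase (ENSMUSG00000005413, chromosome 8, 75093621 to 75100589), was counted far more deeply. It had 2003 counts in C57BL/6 and 1170 in Ch25h-/-, or 117 and 73.9 CPM. Its log2 ratio of -0.66 (interval -0.77 to -0.56) is a 1.58-fold lower level, short of the 2-fold rule. Intervals of Cd163 and Hmox1 overlap, and no interval was computed for the difference of their ratios.

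Spic, the transcription factor of the Ets family that red pulp macrophages need to develop and that haem induces (ENSMUSG00000004359, chromosome 10, 88674772 to 88685015), went from 533 to 219 counts. The levels were 31.1 and 13.8 CPM, and the log2 ratio was -1.17 (-1.41 to -0.94). Spi1, which encodes the related factor PU.1 of all myeloid cells, had 2075 and 1489 counts (log2 ratio -0.37). The Spic ratio was lower than that of Spi1 by 0.80 on the log2 scale (interval -1.06 to -0.55), and lower than that of Hmox1 by 0.51 (-0.76 to -0.25).

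Ferritin, the iron store, is built from a heavy chain (Fth1), which oxidises iron, and a light chain (Ftl1), which helps to lay it down as mineral. Fth1 (ENSMUSG00000024661, chromosome 19, 9980598 to 9985098) was the most abundant of the 10 and number 24 of all measured genes by mean CPM. It had 39177 counts in C57BL/6 and 19515 in Ch25h-/-, or 2290 and 1232 CPM. The log2 ratio was -0.89 (-0.92 to -0.87), a 1.86-fold lower level with the narrowest interval of the 10. Ftl1 (ENSMUSG00000050708, chromosome 7, 45457944 to 45459884) had 8079 and 5515 counts, or 472 and 348 CPM, with a log2 ratio of -0.44 (-0.49 to -0.39).

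Heavy chain counts exceeded light chain counts in both libraries, by 4.85 to 1 in C57BL/6 and by 3.54 to 1 in Ch25h-/-. The log2 ratio of Fth1 was lower than that of Ftl1 by 0.45 (interval -0.51 to -0.40). Per kilobase of annotated exon, the heavy chain level was 1.87 times the light chain level in C57BL/6 and 1.37 times in Ch25h-/-. Both chains together took 0.279% of all C57BL/6 counts (Clopper-Pearson interval 0.276 to 0.281%) and 0.157% of all Ch25h-/- counts (0.155 to 0.159%). The light chain value is less sure than the heavy chain value, because 726 of the 968 windows of 50 bases in Ftl1 coding transcripts also occur in other annotated genes. The copy Ftl1-ps1, which the table lists as Gm10116, had 2076 and 1566 counts.

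Ferritin, ferroportin and transferrin receptor messages share a control element. The iron-responsive element is a hairpin with the loop CAGTGN, bound by iron regulatory proteins when iron is scarce. In the 5′ untranslated region it blocks translation, and in the 3′ untranslated region it protects the message from decay. A search of annotated coding transcripts for C, 5 bases, CAGTGN and 5 bases that pair with the first 5 found the pattern in untranslated regions of 4 of the 10 genes, and of 0.731% of 21901 genes. The elements are printed 5′ to 3′ as DNA from GENCODE M21 transcripts (GRCm38), with the loop in capitals, because the 4 genes that carry them differ in direction. They lie at chr19:9982732-9982761 on the plus strand (Fth1, 5′ untranslated region), chr7:45459778-45459807 on the minus strand (Ftl1, 5′) and chr1:45925464-45925493 on the minus strand (Slc40a1, 5′). The 4 Tfrc elements that the pattern found all lie in the 3′ untranslated region on the plus strand. Elements with a stem that departs from the pattern would be missed. Those of Tfrc are named by their first base, at chr16:32631219-32631248, chr16:32631598-32631627, chr16:32631663-32631692 and chr16:32631710-32631739.
Fth1: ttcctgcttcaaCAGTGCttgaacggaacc
Ftl1: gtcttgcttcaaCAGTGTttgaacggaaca
Slc40a1: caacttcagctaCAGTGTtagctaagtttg
Tfrc 32631219: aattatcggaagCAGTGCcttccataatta
Tfrc 32631598: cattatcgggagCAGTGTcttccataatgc
Tfrc 32631663: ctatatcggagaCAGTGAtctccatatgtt
Tfrc 32631710: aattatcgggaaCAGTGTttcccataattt

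The Fth1 and Ftl1 elements are identical at 26 of 30 bases, and their genes had log2 ratios of -0.89 and -0.44. Slc40a1 carries its element in the same region as the ferritin genes, yet its RNA was higher in Ch25h-/-. Tfrc, with the element in the 3′ untranslated region, was higher too. RNA counts do not show translation, and whether these elements took part in any difference was not tested.

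Slc40a1 encodes ferroportin, the only known exporter of iron from cells (ENSMUSG00000025993, chromosome 1, 45908068 to 45926523). It had 118 counts in C57BL/6 and 180 in Ch25h-/-, or 6.90 CPM (5.71 to 8.26) and 11.4 CPM (9.76 to 13.1). The 2 count intervals do not overlap, and the log2 ratio was 0.72 (0.38 to 1.07), a 1.65-fold higher level. Of all measured genes, 4.93% had a higher ratio. Its direction was opposite to that of the genes that free and store the iron it carries. Its log2 ratio exceeded that of Hmox1 by 1.38 (interval 1.02 to 1.75), that of Fth1 by 1.61 (1.27 to 1.96) and that of Spic by 1.89 (1.47 to 2.31).

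Hamp, the gene of hepcidin, which binds ferroportin and has it degraded, had the lowest ratio of the 10 (ENSMUSG00000050440, chromosome 7, 30942368 to 30944032). Hepcidin comes mainly from the liver, and myeloid cells make some during infection. It had 54 counts in C57BL/6 (Poisson interval 40.6 to 70.5) and 5 in Ch25h-/- (1.62 to 11.7). The levels of 3.16 and 0.316 CPM give a log2 ratio of -3.32, with a wide interval of -5.00 to -2.01. Hamp passed the filter of 1 CPM through the C57BL/6 library, where it is high. All 6 hepatocyte markers searched (Alb, Apoa1, Ttr, Serpina1a, Fgb and Ahsg) had 0 counts in both libraries. The floor of 3 counts used for a count of 0 equals 0.175 CPM in C57BL/6 and 0.189 CPM in Ch25h-/-. The near-identical gene Hamp2 shares 16.6% of the 50-base windows of Hamp and had 0 counts in both. A long non-coding gene, Gm44662, overlaps Hamp on the opposite strand, and whether counting used strand is not given in the sources used here.

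The promoter of Hamp is shown because the 2 signals best known to drive it, bone morphogenetic protein (BMP) and interleukin-6 through STAT3, act through short motifs there. The stretch of 150 bases before the start of the gene (RefSeq, GRCm38.p6, chr7:30944030-30944179, minus strand, 5′ to 3′) reads as follows, with GGCGCC, the core of the BMP response element, and a TTCNNNGAA match, the STAT motif, in capitals.
Hamp promoter: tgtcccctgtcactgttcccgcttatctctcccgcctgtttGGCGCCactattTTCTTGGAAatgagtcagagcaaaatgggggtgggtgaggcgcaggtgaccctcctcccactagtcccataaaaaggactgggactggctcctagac

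GGCGCC starts 109 bases and the STAT motif 97 bases before the start of transcription. On either strand, GGCGCC occurs in 11.9% and TTCNNNGAA in 8.30% of 32851 promoter windows of 250 bases before to 50 after a start. Windows of 7 of the 10 genes are in the promoter table, 9 windows in all, and Hamp has the only TTCNNNGAA among them. The antioxidant response core TGACNNNGC and the E-box CACGTG occur in none of the 9 windows (12.4% and 7.15% of all windows), GAGGAA, a motif of the PU.1 family, in 1 (28.3% of all), and GGCGCC in 1 other, that of Tfrc. A match describes the letters and not the binding of a factor.

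Genes that control hepcidin were followed through a list of 19, of which 14 were measured. Il6, the cytokine gene, had 375 and 135 counts (21.9 and 8.52 CPM, log2 ratio -1.36, interval -1.66 to -1.08), and Hfe, whose loss causes iron overload, had 175 and 66 counts (log2 ratio -1.30, -1.73 to -0.88). Both were called lower. The receptor genes Il6ra (-0.76) and Il6st (-0.97) and Stat3 (1544 and 1206 CPM, -0.36) did not reach 2-fold. Fam132b, the gene of erythroferrone, which restrains hepcidin, had 15 and 40 counts and was called higher (log2 ratio 1.53, interval 0.64 to 2.49). With 0.877 and 2.52 CPM, it passed the filter of 1 CPM through the Ch25h-/- library, where it is high. The median of the 14 was -0.36, with 8 below 0 and 6 above. Intervals lay below 0 for 7 and above 0 for 3, beside 27.5% and 31% of all measured genes. Genes of BMP signalling went both ways. Smad7 (-0.45) and Smad1 (-0.37) lay below 0 and Smad5 (0.30) above, while the intervals of Bmpr1a, Bmpr2, Smad4 and Id1 held 0. Tmprss6 of the same list stood at 0.67 (interval 0.44 to 0.89). Whether any of these genes took part in the Hamp difference was not tested.

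The carrier and the receptor of blood iron differed in opposite directions. Transferrin (Trf) carries iron in the blood and is made mainly by the liver, and macrophages also express it. Its gene (ENSMUSG00000032554, chromosome 9, 103204001 to 103230444) had 81 counts in C57BL/6 and 18 in Ch25h-/-, or 4.73 CPM (3.76 to 5.88) and 1.14 CPM (0.673 to 1.80). The log2 ratio was -2.06 (-2.88 to -1.31), and 114 measured genes had a lower one. Gm20425, annotated on the same strand, overlaps Trf and was listed at 0 in both libraries. Of 2947 windows of 50 bases in Trf coding transcripts, 2043 also occur in other annotated genes. There are 31 such genes, Gm20425 among them. The Trf counts thus depend on how shared reads were assigned, which is not given in the sources used here.

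Tfrc encodes the transferrin receptor through which cells, above all dividing ones, take up transferrin iron (ENSMUSG00000022797, chromosome 16, 32608920 to 32632794). It went the other way, from 1120 counts in C57BL/6 to 1855 in Ch25h-/-, or 65.5 and 117 CPM. The log2 ratio of 0.84 (0.73 to 0.95), a 1.79-fold higher level, was the highest of the 10, and 398 measured genes had a higher one. Its interval overlapped that of Slc40a1, and the ratio of Tfrc to Slc40a1 counts was 9.49 and 10.3 in the C57BL/6 and Ch25h-/- libraries. The ratio of receptor to ligand counts, Tfrc to Trf, was 13.8 in C57BL/6 and 103 in Ch25h-/-.

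Slc11a1 encodes NRAMP1, which pumps divalent metals out of the phagosome and is a known determinant of resistance to intracellular bacteria (ENSMUSG00000026177, chromosome 1, 74375195 to 74386062). It had 2090 counts in C57BL/6 and 1294 in Ch25h-/-, or 122 and 81.7 CPM. Its log2 ratio of -0.58 (-0.68 to -0.48) was close to that of Hmox1, and the difference, Hmox1 minus Slc11a1, had an interval that holds 0 (-0.08, interval -0.23 to 0.06). The ratio of Tfrc lay above that of Slc11a1 by 1.42 (1.27 to 1.57). Which allele of Slc11a1 the mice carry was not examined, and RNA counts do not show whether the protein works.

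**Figure D3:**
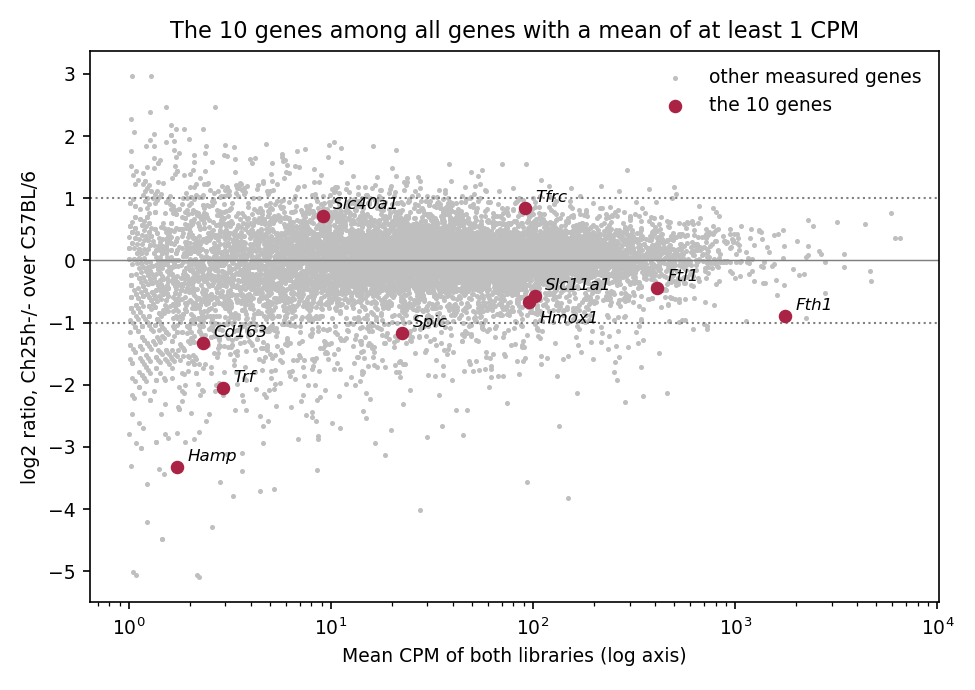
log2 ratio, Ch25h-/- over C57BL/6, against mean CPM (log axis) for all 11972 measured genes (grey) and the 10 genes (red). Hamp, Trf and Cd163 lie at the low-count end where ratios scatter most, while Fth1, at a mean of 1761 CPM, lies at -0.89 among genes that scatter little.

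Levels of different genes were compared per kilobase of merged exon length. In the C57BL/6 library the order was Fth1 (660.0 CPM per kilobase), Ftl1 (352), Hmox1 (66.9), Slc11a1 (33.0), Tfrc (10.6), Spic (8.11), Hamp (7.70), Trf (1.43), Slc40a1 (0.766) and Cd163 (0.610). Counting intervals of neighbours overlapped for Spic with Hamp and for Slc40a1 with Cd163. In the Ch25h-/- library the first 6 places were held by the same genes in the same order. Slc40a1 came seventh (1.26 CPM per kilobase), ahead of Hamp (0.770), Trf (0.342) and Cd163 (0.243), and the intervals overlapped between neighbours from Slc40a1 down to Cd163. Tfrc stood close below Slc11a1 there, at 18.9 against 22.0 CPM per kilobase.

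The wider iron and haem lists held 74 further genes, of which 61 were measured. Their median log2 ratio was -0.05, near the 0.01 of all measured genes, with 33 below 0 and 28 above. Lrp1, Flvcr1, Cp, Il6 and Hfe, 5 of 61, were called lower, and Fam132b alone was called higher, beside 5.77% and 2.07% of all measured genes. Of the 8 other measured haem capture and breakdown genes, 6 had intervals below 0 and 2 above, beside 27.5% and 31% of all measured genes. The 2 above were Abcg2, a transporter that exports haem and other compounds (log2 ratio 0.45), and Slc48a1, which moves haem out of the phagolysosome (0.20). Lrp1, a receptor for haem bound to haemopexin, had 292 and 139 CPM (log2 ratio -1.07), and Flvcr1, a haem exporter gene that the table lists under an older symbol, had 66.0 and 32.1 CPM (log2 ratio -1.04). The haem-responsive regulators Nfe2l2 and Bach1 stood at -0.48 and -0.37.

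Among 3 measured storage partners the ratios were small, from -0.20 for Ncoa4, the receptor that delivers ferritin to autophagosomes, to 0.18 for Pcbp1, an iron chaperone. Cp, the gene of the copper oxidase ceruloplasmin that works beside ferroportin, had 325 and 142 counts (log2 ratio -1.08, -1.38 to -0.79), opposite in sign to Slc40a1. Of 7 other measured uptake genes none was called. Slc39a8, a zinc and iron importer (69 and 115 counts, 0.85), and Steap3, a ferrireductase of endosomes (97 and 141 counts, 0.65), were highest, near Tfrc. Tfr2, a second transferrin receptor that was named after its values were seen, had 23 and 3 counts, under 1 CPM on average. In cytosolic iron sensing Ireb2, which encodes iron regulatory protein IRP2, stood at 0.37 (0.27 to 0.46) and Fbxl5, whose product targets IRP2 for destruction, at -0.38 (-0.43 to -0.32).

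**Figure D4:**
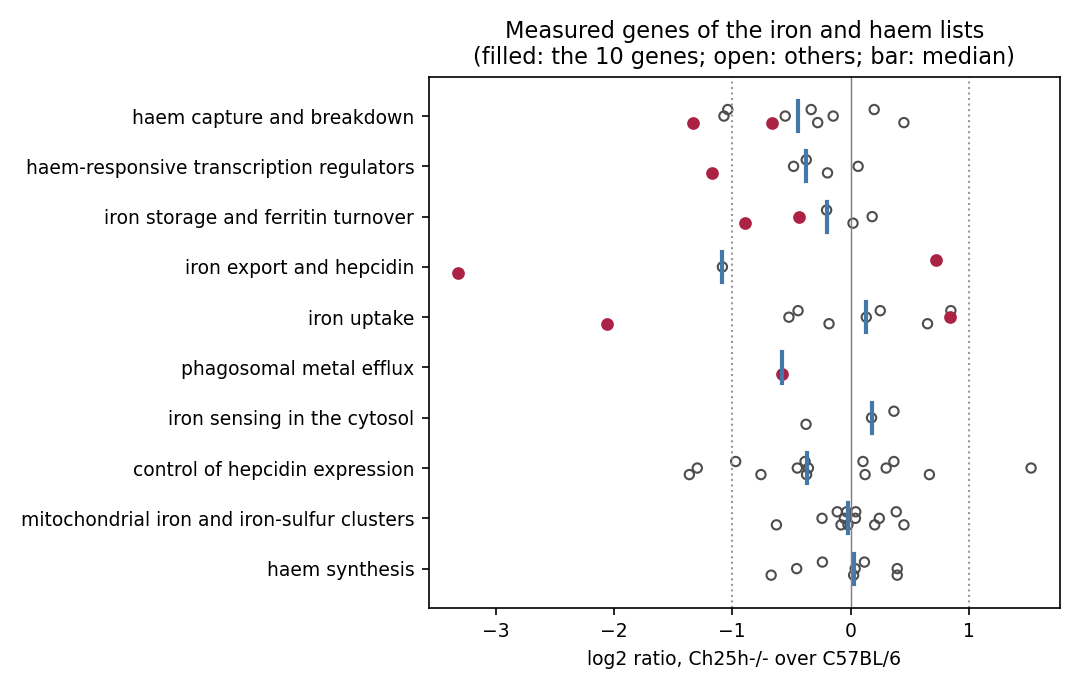
log2 ratio, Ch25h-/- over C57BL/6, of each measured gene in 10 iron and haem lists, with the 10 genes filled, other genes open and a blue bar at the median of both kinds together, dotted lines at 2-fold. Points of the mitochondrial and haem synthesis lists gather near 0, while the 10 genes spread from -3.32 (Hamp) to 0.84 (Tfrc).

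Cell type markers also differed between the libraries. All 13 red pulp macrophage markers outside the 10 were measured. Of these, 11 had ratios below 0, beside 48.2% of all measured genes. C1qa alone was called lower (23.7 and 8.96 CPM, log2 ratio -1.40). Intervals lay below 0 for 8 of the 13 and above 0 for Maf alone (0.33), beside 27.5% and 31% of all measured genes. The median was -0.38, C1qb stood at -0.78, and Sirpa, the most abundant, at -0.71. Vcam1 stood at -0.31, and the intervals of Pparg (-0.40), Mertk (-0.25), Itgad (-0.15) and Axl (0.01) held 0. The summed level of the 13 was 590 CPM in C57BL/6 and 408 CPM in Ch25h-/-, and none was at 0. Sirpa alone gave 298 and 182 CPM of it. General mononuclear phagocyte markers had a median of -0.02, with 5 of 10 above 0, and their summed levels were 2316 and 2414 CPM. In that list Itgam (CD11b, a gene of the sorting gate) stood at 0.31, Lyz2 at 0.60, and Cd14 was called lower (-1.33). The interval lay below 0 for 4 of the 10: Cd14, Csf1r (-0.44), Spi1 (-0.37) and Cd68 (-0.24). It lay above 0 for 3: Lyz2, Itgam and Tyrobp (0.22). The flat median and sum thus join genes that went opposite ways.

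The Ly6C-low monocyte list had a median of -0.32 and summed levels of 2429 and 2946 CPM, so median and sum went opposite ways. Intervals lay below 0 for 6 of its 10 genes, Fcgr4 (-1.13) and Ear2 (-0.76) among them. They lay above 0 for 4: Pglyrp1 (0.64), Cx3cr1 (0.62), Spn (0.52) and Itgal (0.41). Itgal alone gave 1341 and 1784 CPM of the sum. The Ly6C-high monocyte list had a median of 0.69 (Ccr2 1.19, Vcan 1.02) and summed levels of 1824 and 2815 CPM. Conventional dendritic cell markers had a median of -1.83 over the 9 of 11 that were measured, and summed levels of 1938 and 818 CPM. Of the 9, 7 were called lower (among them Fscn1 -2.13, Esam -2.67 and Batf3 -2.14), beside 5.77% of all measured genes. Itgax, the 1 measured gene above 0, had 272 and 336 CPM (0.30, interval 0.25 to 0.36). Xcr1 of that list had 0 counts in C57BL/6 and 6 in Ch25h-/-. Dendritic cells and monocytes also express ferritin, and the part of these cells in the values of Fth1 and Ftl1 was not tested.

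All 19 cell cycle genes had ratios above 0, as did Tfrc. Their median was 0.79, with Mki67 at 0.78, Ccna2 at 1.17 and Top2a at 1.07, and their summed level was 1993 CPM in C57BL/6 and 3469 CPM in Ch25h-/-. NK cell markers (12 of 12 above 0, median 0.73, 13335 and 21459 CPM, Gzmb 0.77, Ncr1 1.46, Klre1 1.17) and neutrophil markers (11 of 13 above 0, median 0.80, 1341 and 2251 CPM, Ngp 322 and 646 CPM, Ly6g 2.47, Mmp9 1.18) lay on the same side. Their part in the value of Tfrc was not tested. Of the neutrophil markers, Ly6g had only 8 and 41 counts (0.468 and 2.59 CPM). It passed the filter of 1 CPM through the Ch25h-/- library, where it is high. B cell markers lay on the other side, with 8 of 8 below 0 and a median of -0.68 (1302 and 805 CPM, Cd22 -0.61, Ebf1 -1.10, Fcrla -1.10). Erythroid precursors also carry the transferrin receptor. None of 13 erythroid markers was measured, their summed level was 3.68 and 2.40 CPM, no haemoglobin gene exceeded 7 counts in a library (these genes are near-identical copies, so reads that match several may be missing), and Slc4a1 and Epb42 had 0 counts in both.

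**Figure D5:**
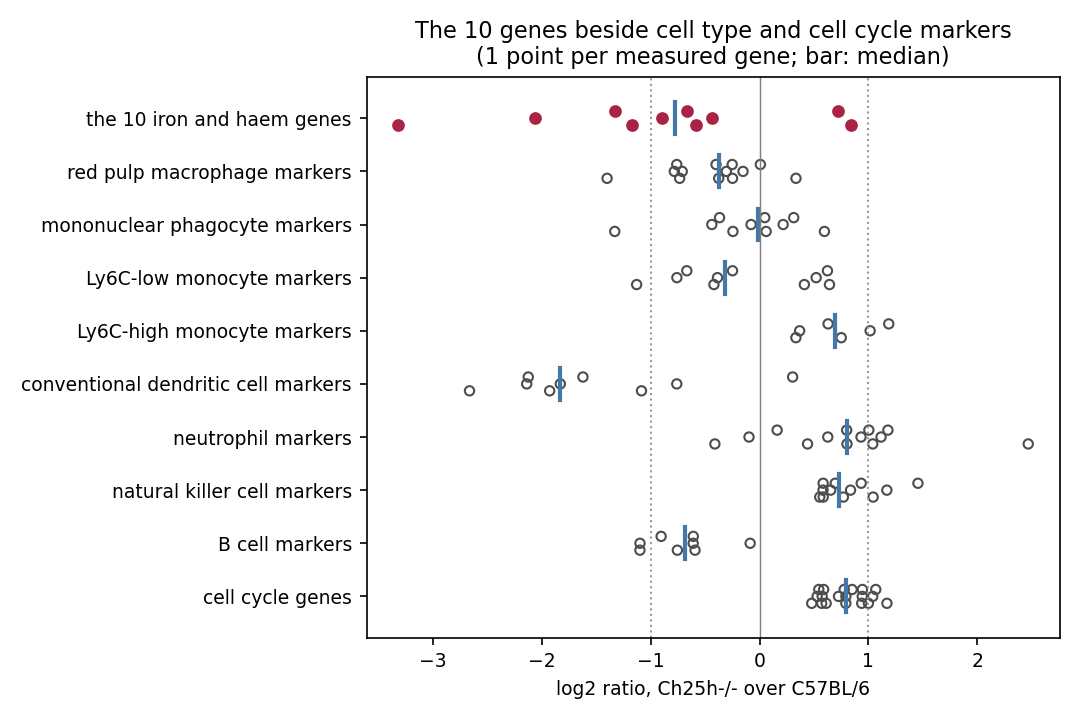
log2 ratio, Ch25h-/- over C57BL/6, of the 10 genes (filled) beside measured markers of 8 cell types and cell cycle genes (open), with a blue bar at each median. The bar of the 10 genes, at -0.78, lies below that of the red pulp macrophage markers, at -0.38, and all 19 cell cycle genes lie right of 0, as do Tfrc and Slc40a1.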

How the data were processed

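Per the labels' protocols, TRIzol was used for the RNA of the sorted cells and a KAPA RNA HyperPrep kit for the libraries. Tools named in the submitters' processing notes are the aligner GSNAP, featureCounts from Subread 1.5.2, edgeR 3.26.8 and FastQC 0.11.9, with GRCm38 and mm10 as builds. The deposited values are whole read counts per gene, 1 column per genotype. How strand and multiply mapped reads were handled is not given in the sources used here.

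TMM factors (1.01 for C57BL/6, 0.991 for Ch25h-/-; edgeR 4.0.16, R 4.3.3) turned the counts into CPM. Measured genes averaged 1 CPM or more, and ratios used no prior count. Intervals are Clopper-Pearson (ratios, shares), Poisson (counts) and exact conditional odds ratio intervals (differences of ratios), from scipy 1.17.1, with a floor of 3 counts for a count of 0. The intervals cover counting error only. Reads carry no molecular identifiers, so duplicate reads of 1 molecule cannot be told apart and the intervals may be too narrow even for that error. With 1 library per genotype, no p-value was computed. GENCODE M21 (GRCm38) gave positions and exon lengths, and 30126 of 30538 gene IDs matched it. Genes listed under older symbols were found by ID. The calculation was tested on simulated data.

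The 10 genes, the lists and the tests were chosen with earlier results of these data known. Text names the 10, from each iron list the 2 other measured genes with the largest ratios in size and any called, and from each marker list the most abundant and the 2 largest. Not every marker gene under this rule is reported here. Other genes in the text were chosen after their values were seen. Several genes are on more than 1 list. Alternatives were upper quartile scaling, total counts, size factors of DESeq2 1.42.0, totals that leave out mitochondrial, haemoglobin, S100a8, S100a9 and antigen receptor genes, filters of 5 CPM or 1 count, a prior count of 2, an interval beyond 2-fold, ferritin copies summed, and transcript in place of exon length.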

Additional observations from a re-analysis of the deposited data

How the results depend on the processing

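Of the 4 members called lower, a filter at 5 CPM left 1 (Spic), since Hamp, Trf and Cd163 fall under that level, and an interval wholly beyond 2-fold left 2 (Hamp and Trf). The other 6 alternatives called the same 4, and none called a member higher. Over all measured genes, 691 were called lower and 248 higher. A filter at 5 CPM gave 347 lower and 120 higher, an interval wholly beyond 2-fold gave 318 and 67, and no filter beyond 1 count, which adds genes, gave 1031 and 435. The stricter interval was applied to the same 10 members and 11972 measured genes. How many genes passed the 5 CPM or 1-count filter is not reported here. The counts under those filters thus have no share of genes beside them, and members cannot be set against it. In the wider iron and haem lists the 5 CPM filter left 0 higher, and the stricter interval left 1 lower (Il6) and 0 higher. The 5 CPM filter and the stricter interval remove genes by construction. No member changed sign under any scaling or with the prior count of 2. The largest scaling shift was 0.03, with total counts, which moved Fth1 to -0.92, past its counting interval. With the prior count Hamp moved most, by 0.42. Summed with its copies, Ftl1 stood at -0.41. With the longest transcript in place of merged exons, 2 members, Tfrc and Spic, exchanged places in the order per kilobase in the C57BL/6 library. Depth limits Hamp, Trf, Cd163 and Slc40a1, whose intervals are wide. No paired analysis was possible because each genotype has 1 library.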

Other observations

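Genes that, like Hmox1 and ferritin, answer to NRF2 and BACH1 went both ways. Of 12 such genes outside the 10, 10 were measured, with 5 above 0, 5 below and a median log2 ratio (Ch25h-/- over C57BL/6) of 0.05. Slc7a11, a cystine importer, was called lower (1261 and 481 counts, -1.28), and Blvrb, a biliverdin reductase that works after haem oxygenase, stood at -0.55 (274 and 173 counts). Prdx1, a peroxiredoxin, was highest at 0.50, and Gclm, a subunit of the enzyme that starts glutathione synthesis, stood at 0.44. Hmox1 (-0.66) and Fth1 (-0.89) lay below the median of this list, and Slc40a1 (0.72), also a target, lay above its highest gene.

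Genes that use iron inside the cell had medians near that of all measured genes, 0.01. Of 13 measured genes of mitochondrial iron and iron-sulfur clusters 0 were called, beside 5.77% lower and 2.07% higher of all measured genes, a share at which few calls fall in so short a list. Their median was -0.02. Iscu, the scaffold of cluster assembly, was lowest (34.9 and 22.6 CPM, -0.63), and Isca2, a later assembly factor, highest (14.7 and 20.1 CPM, 0.45). None of 8 measured haem synthesis genes was called either, with a median of 0.03. Uros stood at -0.67 (172 and 100 counts) and Fech, which puts iron into haem, at -0.46. Alas2, the erythroid form of the first enzyme, had 0 counts in both libraries, while the general form Alas1 had 60.3 and 61.4 CPM.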
